A study of Mus musculus with 8 samples.

Results

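Laminins, nidogens and perlecan are the non-collagenous scaffold of the basement membrane, the thin sheet of matrix under the aortic endothelium and around each smooth muscle cell. Their transcripts were followed here through 10 genes: the laminin α chain genes Lama2, Lama3, Lama4 and Lama5, the β chain genes Lamb1 and Lamb2, the γ chain gene Lamc1, the nidogen genes Nid1 and Nid2, and the perlecan gene Hspg2. Each gene was taken from the array row whose only platform gene symbol was its own. All 10 had exactly 1 such row, out of 30142 genes named in this way on an array of 65956 rows.

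The study measured total RNA of the aorta, described in its design as ascending aorta, from male mice at 10 weeks of age on whole-transcriptome mouse arrays (Clariom D). The arrays mgR611, mgR612, mgR613 and mgR614 held RNA of Fbn1mgR/mgR mice, which carry mgR on both copies of Fbn1 (n = 4). The arrays WT675, WT676, WT742 and WT744 held RNA of wild-type mice (n = 4). Both genotypes came from matings of Fbn1mgR/+ parents on a C57BL/6J background, and no treatment is named for either. The product of Fbn1, fibrillin-1, builds the microfibrils of elastic tissue, and mgR is an allele with reduced fibrillin-1 output that is used as a model of Marfan syndrome. It is a germline allele, so every cell type of the aorta carries it.

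A laminin is a cross-shaped trimer of an α, a β and a γ chain, and trimers bind each other through their short arms to form a network on the cell surface. Nidogens bridge that network to the collagen IV network, and perlecan, a large proteoglycan, joins both and holds growth factors on its heparan sulfate chains. The α chain carries the sites for integrins and dystroglycan: α4 and α5 are the chains of vascular endothelium, α2 and α5 occur around muscle cells, and α3 is mainly epithelial.

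Values are log2 signals as deposited, so that a difference of 1 is a doubling. Differences are Fbn1mgR/mgR minus wild-type, tested with limma over the 32957 rows whose mean signal lay above the median of the array, with Benjamini-Hochberg adjustment and a threshold of 0.05. Array medians were 3.95 to 4.07, and Pearson correlations across all rows were 0.989 to 0.993 within Fbn1mgR/mgR, 0.989 to 0.992 within wild-type and 0.985 to 0.990 between genotypes. The labels do not state that each array came from a separate animal, so the p-values measure only how much these samples vary, which may be technical, and their number limits the precision. Of the smooth muscle markers that should define the tissue, Acta2 was 19.1 to 19.5 in Fbn1mgR/mgR and 19.5 to 19.6 in wild-type arrays, close to the highest value of 19.93. Acta2 does not stand for its whole list, as the 12 contractile smooth muscle markers had a median difference of -0.5. Brown fat markers were far higher in mgR614 (mean 9.86) than in the other Fbn1mgR/mgR arrays (6.92 to 7.03), and spanned 6.21 to 10.1 in wild-type arrays, with WT676 the highest.

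None of the 10 genes passed the threshold in either direction (0 called, where 1.86% of all rows tested were called). At an unadjusted p under 0.05, Nid1 was higher and Lama2 and Lama4 were lower in Fbn1mgR/mgR, 3 of 10 genes where 14.3% of all rows tested reached that level (7.59% higher and 6.68% lower). The median difference of the 10 genes was 0.01, against -0.02 over all rows tested, and their median size regardless of sign was 0.17, against 0.14. The 95% interval of the difference lay within a 2-fold change in either direction for 8 genes, the exceptions being Nid1 and Nid2.

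**Figure D1:**
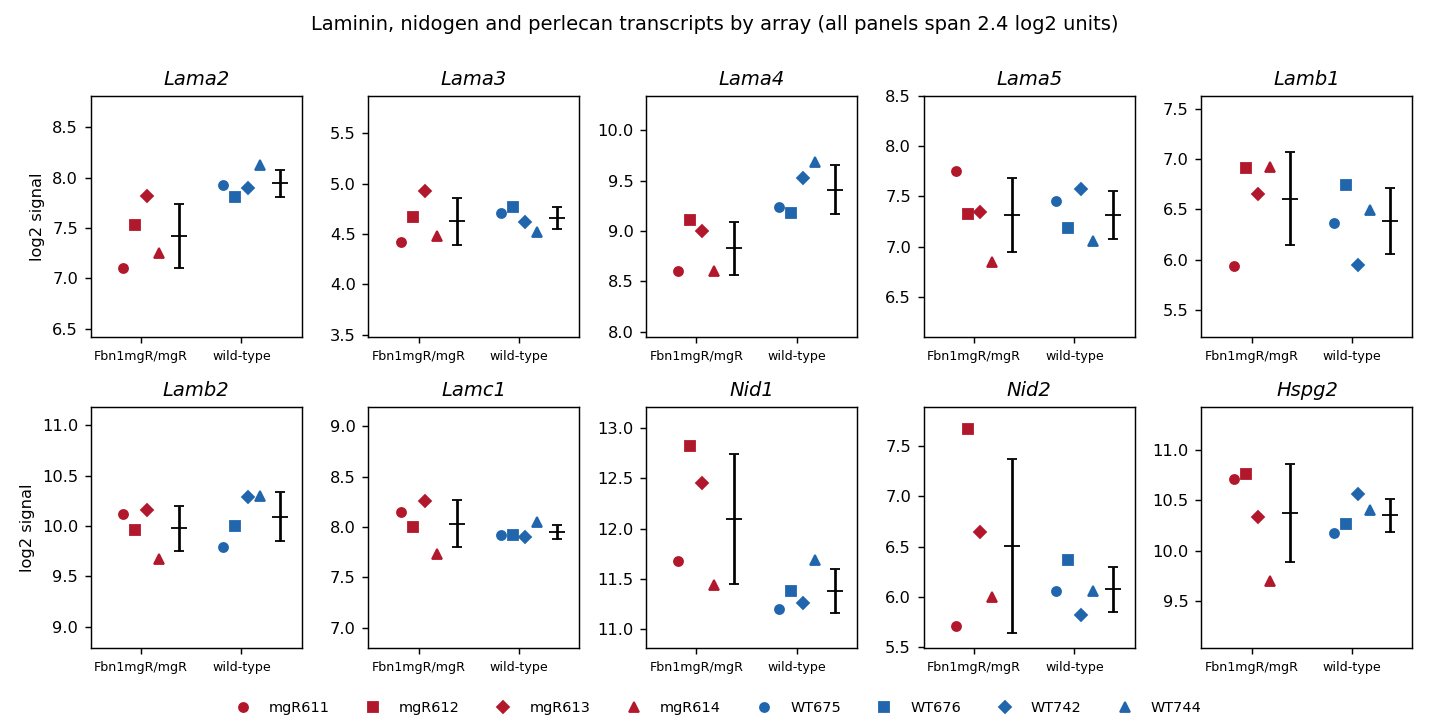
Log2 signal (vertical axis) of the 10 genes in the 4 Fbn1mgR/mgR arrays (red, left) and the 4 wild-type arrays (blue, right), 1 symbol per array, with the mean and SD as a bar beside each group (n = 4). Every panel spans 2.4 log2 units. Lama4 is the 1 gene of 10 whose groups do not overlap, where 8.92% of all rows tested do not overlap in either direction. Nid1 and Nid2 have the widest spread within Fbn1mgR/mgR.

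Among the α chains, Lama4 and Lama2 gave the largest differences. Lama4 encodes the α4 chain, a truncated laminin chain typical of endothelium and also found in adipose and muscle tissue. Its signal was 8.60, 9.11, 9.0 and 8.60 in mgR611, mgR612, mgR613 and mgR614, against 9.24, 9.18, 9.53 and 9.69 in WT675, WT676, WT742 and WT744. All 4 Fbn1mgR/mgR arrays lay below all wild-type arrays, although the closest arrays of the genotypes, mgR612 and WT676, were 9.11 and 9.18. Such a separation, lower in Fbn1mgR/mgR, occurred in 3.65% of all rows tested, and in either direction in 8.92%. Lama4 was the only 1 of the 10 genes with a separation in either direction. The means were 8.83 ± 0.267 in Fbn1mgR/mgR and 9.41 ± 0.241 in wild-type (SD, n = 4 each), a difference of -0.58 (SE 0.178, limma adjusted p = 0.174), or 0.668-fold with a 95% interval of 0.505 to 0.884.

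Lama2 encodes the α2 chain of the laminin around muscle fibres and Schwann cells, which binds dystroglycan and whose loss causes a congenital muscular dystrophy. Its signal was 7.10, 7.53, 7.82 and 7.25 in the same order of Fbn1mgR/mgR arrays, against 7.93, 7.81, 7.90 and 8.13 in the wild-type arrays. Of the Fbn1mgR/mgR arrays, 3 lay below all wild-type arrays and mgR613, at 7.82, just overlapped with WT676 at 7.81. The difference was -0.52 (SE 0.170, limma adjusted p = 0.207), or 0.699-fold with a 95% interval of 0.534 to 0.914. The spread was larger in Fbn1mgR/mgR, with an SD of 0.318 against 0.135 in wild-type.

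Lama5, which encodes the α5 chain, the most widely distributed α chain of adult basement membranes, showed no shift of its mean. It was 7.75, 7.32, 7.34 and 6.85 in the Fbn1mgR/mgR arrays, against 7.45, 7.18, 7.57 and 7.06 in the wild-type arrays. Both the highest and the lowest array were Fbn1mgR/mgR, and both means were 7.32 (SD 0.368 and 0.236 in Fbn1mgR/mgR and wild-type). With a fold of 1.0, the 95% interval was 0.727 to 1.38, so the equal means do not establish that Lama5 was unchanged. The smallest change of this gene that these arrays could detect was not tested. Lama3, whose α3 chain belongs to epithelial laminins, was dim, at 4.42 to 4.93 in Fbn1mgR/mgR and 4.52 to 4.77 in wild-type arrays. For comparison, the 95th percentile of 1083 olfactory receptor genes, taken as a reference for dim signal, was 4.13. The Lama3 difference was -0.03 (SE 0.125, limma adjusted p = 0.954).

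The β and γ chains, which pair with any of these α chains, differed less between genotypes than among arrays of 1 genotype. Lamb1, the gene of the β1 chain, was 5.94, 6.91, 6.65 and 6.92 in the Fbn1mgR/mgR arrays, against 6.36, 6.74, 5.95 and 6.49 in the wild-type arrays. Here mgR611 and WT742 were both low, at 5.94 and 5.95, and the groups overlapped over most of their range. The difference was 0.22 (SE 0.249, limma adjusted p = 0.777).

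Lamb2, the gene of the β2 chain found in arterial smooth muscle, kidney and synaptic basement membranes, was 10.12, 9.96, 10.16 and 9.67 in the Fbn1mgR/mgR arrays, against 9.79, 10.0, 10.29 and 10.30 in the wild-type arrays. The lowest array was mgR614 and the groups overlapped. The difference was -0.12 (SE 0.168, limma adjusted p = 0.833).

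Lamc1 encodes the γ1 chain, which is shared by most laminin trimers and holds the nidogen binding site. Its signal was 8.15, 8.0, 8.26 and 7.73 in the Fbn1mgR/mgR arrays, against 7.92, 7.92, 7.90 and 8.05 in the wild-type arrays, where mgR614 was again the lowest. The difference was 0.09 (SE 0.137, limma adjusted p = 0.852), or 1.06-fold with a 95% interval of 0.857 to 1.32, the narrowest interval but one among the 10 genes.

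**Figure D2:**
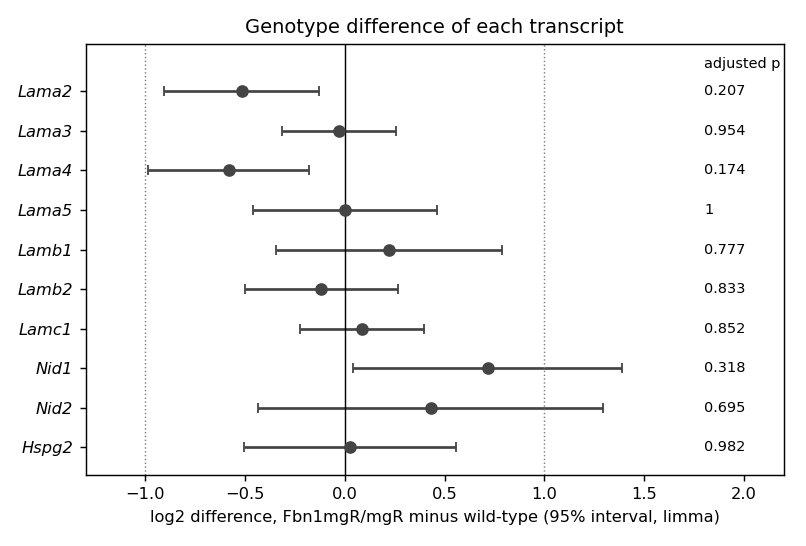
Log2 difference, Fbn1mgR/mgR minus wild-type (horizontal axis), with its 95% interval from limma for each gene, ordered by role from α chains to perlecan; the adjusted p is printed at the right and dotted lines mark a 2-fold change. The intervals of Lama2 and Lama4 lie below 0 and that of Nid1 above 0, while all adjusted p-values are 0.174 or more.

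The nidogens, which link laminin to collagen IV, had the largest positive differences and, within Fbn1mgR/mgR, the largest spread. Nid1, the widely expressed member, was 11.68, 12.82, 12.45 and 11.44 in the Fbn1mgR/mgR arrays, against 11.20, 11.38, 11.26 and 11.69 in the wild-type arrays. Only mgR612 and mgR613 lay above all wild-type arrays. The mean was 12.1 ± 0.646 in Fbn1mgR/mgR and 11.4 ± 0.218 in wild-type (SD, n = 4 each). The difference of 0.71 (SE 0.297, limma adjusted p = 0.318) corresponded to 1.64-fold with a 95% interval of 1.03 to 2.62, and it was 0.47 without mgR612.

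Nid2, the related protein enriched in blood vessel basement membranes, was 5.71, 7.67, 6.65 and 6.00 in the Fbn1mgR/mgR arrays, against 6.06, 6.37, 5.82 and 6.06 in the wild-type arrays. Again mgR612 was the highest and mgR613 the next, whereas mgR611 was the lowest of all 8 arrays. The difference was 0.43 (SE 0.381, limma adjusted p = 0.695), and 0.04 without mgR612.

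Hspg2, the gene of perlecan, was 10.71, 10.76, 10.34 and 9.70 in the Fbn1mgR/mgR arrays, against 10.18, 10.27, 10.56 and 10.40 in the wild-type arrays. The Fbn1mgR/mgR arrays lay on both sides of the wild-type range, with mgR614 below it and mgR611 and mgR612 above it. The difference was 0.02 (SE 0.235, limma adjusted p = 0.982), or 1.02-fold with a 95% interval of 0.703 to 1.47. With the contractile smooth muscle marker mean as a covariate it was 0.42 (limma adjusted p = 0.379).

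Whether related chains moved apart was tested for 3 pairs, by the difference of their log2 signals within each array. The pairs were chosen with earlier results of these data known. The size of such a difference is not a ratio of transcript amounts, because probes of different genes differ in brightness, but its change between genotypes can be compared. Lama4 minus Lama5, the endothelial α chains, was 0.85, 1.79, 1.66 and 1.75 in the Fbn1mgR/mgR arrays, against 1.79, 2.0, 1.96 and 2.63 in the wild-type arrays. The groups touched at 1.79, the value of both mgR612 and WT675, and mgR611 was low. The change of -0.58 did not pass the threshold (exact two-sided permutation p = 0.0571, adjusted p = 0.171 over the 3 pairs, lower than or equal to every wild-type array in 4 of 4 Fbn1mgR/mgR arrays). Lama5 itself differed by 0.0, so this change repeats the Lama4 difference and is no separate evidence. The smallest p that 4 against 4 arrays can give is 0.0286. Adjusted over the 3 pairs, that p in 1 pair alone becomes 0.0857, so no pair could have passed by itself.

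Lamb1 minus Lamb2, the β chains that replace each other in a trimer, differed by 0.34 between genotypes (exact permutation p = 0.400, adjusted p = 0.400; 0.13 to 0.61 with 1 array left out). Nid1 minus Nid2 differed by 0.28 (exact permutation p = 0.257, adjusted p = 0.386; 0.16 to 0.43 with 1 array left out). In both pairs the genotypes overlapped widely: Nid1 minus Nid2 was 5.15 to 5.97 in Fbn1mgR/mgR and 5.01 to 5.63 in wild-type arrays.

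**Figure D3:**
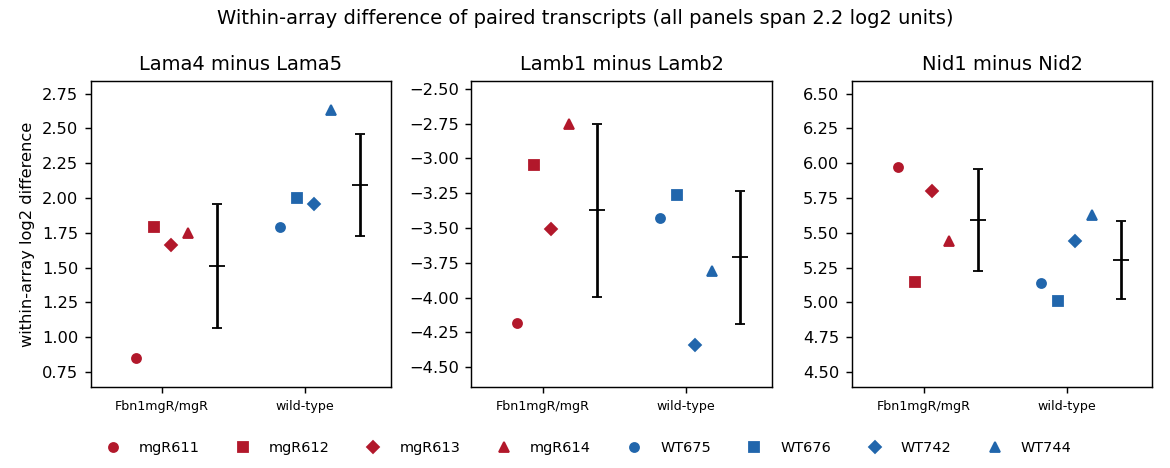
Log2 signal of the first gene minus that of the second within the same array (vertical axis, all panels spanning 2.2 log2 units) for 3 pairs, Fbn1mgR/mgR at left and wild-type at right, with mean and SD (n = 4). Lama4 minus Lama5 is 0.85 to 1.79 in Fbn1mgR/mgR and 1.79 to 2.63 in wild-type; the other pairs overlap.

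The 4 Fbn1mgR/mgR arrays were not alike. For 5 of the 10 genes (Lama2, Lama3, Lama4, Nid1 and Nid2), mgR611 and mgR614 were both lower than mgR612 and mgR613, an arrangement found in 22.4% of all rows tested. This split of the arrays was chosen after the values were seen, so its counts only describe these arrays. Within that genotype, mgR611 was the lowest array for 5 genes and mgR614 for 6, counting Lama4, where both were at 8.60, for each of them. The arrays mgR612 and mgR613 were each the highest for 4. Among wild-type arrays, WT744 was the highest for 5 genes.

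The mean of endothelial markers had the same order in Fbn1mgR/mgR, at 8.36 and 8.48 in mgR611 and mgR614 and 8.94 and 9.35 in mgR612 and mgR613. So did the mean of fibroblast markers, at 12.8, 12.6, 13.3 and 13.2, and those of 2 lists that mark no cell type, heparan sulfate synthesis and turnover and basement membrane collagen cross-linking and processing. The order was thus found in 4 of 14 lists. None of 13 endothelial, 12 contractile smooth muscle and 10 fibroblast markers tested passed the limma threshold, which 1.86% of all rows tested did. Before adjustment, 3, 3 and 1 of them had limma p under 0.05, the first 2 lists downward and the last upward. At that level, 6.68% of all rows tested were lower and 7.59% higher. The median difference was -0.28 for endothelial, -0.5 for contractile and 0.095 for fibroblast markers, against -0.02 over all rows tested. Endothelial means were 8.36 to 9.35 in Fbn1mgR/mgR and 8.80 to 9.52 in wild-type, contractile means 12.1 to 13.2 and 12.9 to 13.7, and fibroblast means 12.6 to 13.3 and 12.8 to 13.0. In whole tissue, fewer cells of a type and less RNA per cell cannot be told apart.

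With the endothelial mean as a covariate the Lama4 difference was -0.53, the Lama2 difference -0.36 and the Nid1 difference 0.95 (limma adjusted p = 0.341, 0.444 and 0.274). The contractile mean gave -0.43, -0.48 and 0.94 for these 3 genes (limma adjusted p = 0.466, 0.44 and 0.35). The fibroblast mean, an alternative added after the values were seen, gave -0.65, -0.58 and 0.57, with limma adjusted p = 0.0666, 0.0897 and 0.174. The brown fat mean gave -0.59, -0.52 and 0.71 (limma adjusted p = 0.159, 0.219 and 0.327). The 3 genes kept their direction and did not pass the threshold with any of these 4 covariates. Macrophage markers did separate the genotypes, with 10 of 12 higher in Fbn1mgR/mgR (means 9.15 to 9.88 against 7.29 to 7.65 in wild-type), where 1.40% of all rows tested were called higher; their part in the values of the 10 genes was not tested.

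**Figure D4:**
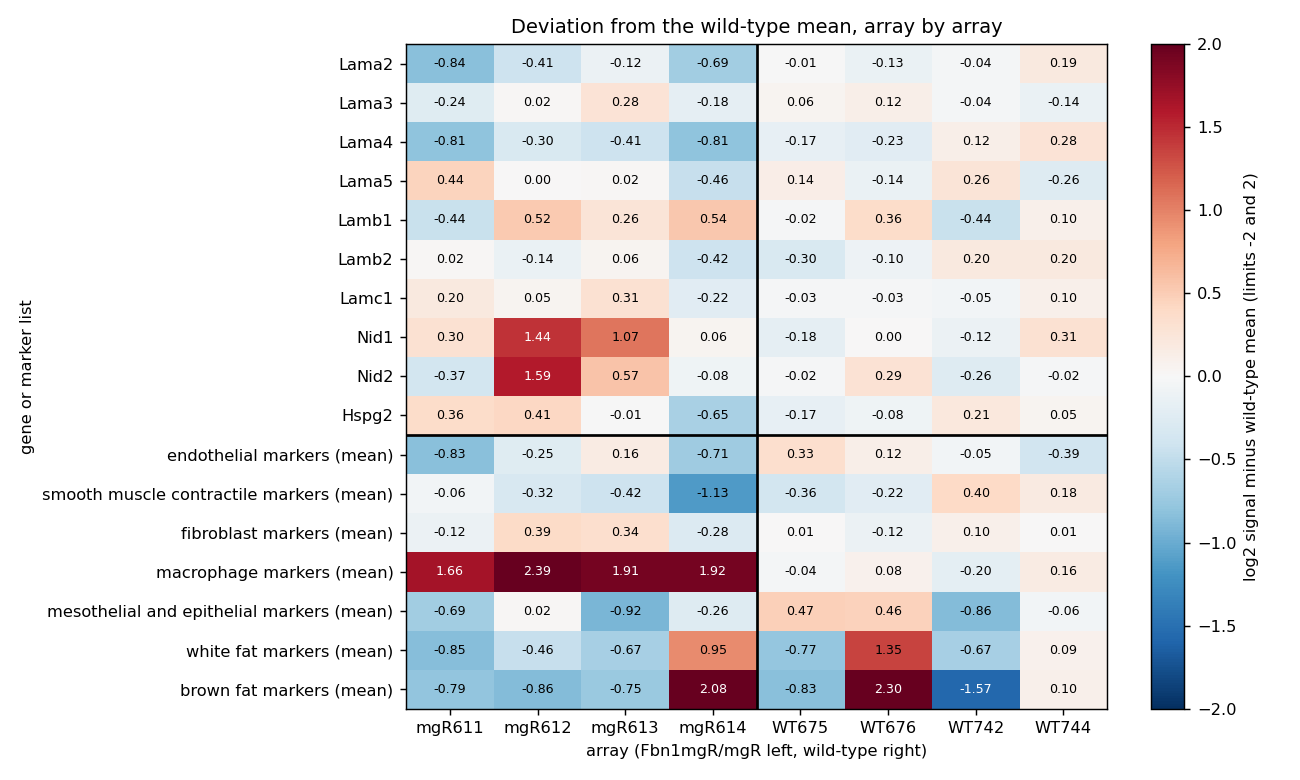
Log2 signal minus the wild-type mean for each gene (upper block) and for the mean of each marker list (lower block), in the 4 Fbn1mgR/mgR arrays (left) and the 4 wild-type arrays (right); red is higher, blue lower. Nid1 and Nid2 stand out in mgR612 and mgR613, Lama2 and Lama4 are lowest in mgR611 and mgR614, and macrophage markers are 1.66 to 2.39 higher in every Fbn1mgR/mgR array.

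Genes that bind, assemble or turn over these proteins were taken from 5 lists with 70 genes, of which 59 were tested. Of these, 2 rose, Ntn4 and Ctss, and 0 fell by limma, where 1.40% of all rows tested were called higher and 0.464% lower. Before adjustment, limma p was under 0.05 for 9 higher and 7 lower, against 7.59% and 6.68% of all rows tested. The same shares stand beside the counts before adjustment in each list below. The median difference of the 59 genes was -0.05, against -0.02 over all rows tested.

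Ntn4 rose in Fbn1mgR/mgR. It encodes netrin-4, a vascular basement membrane protein with a laminin-like N-terminal part that binds laminin γ chains and can open laminin networks. Its signal was 10.51, 10.38, 10.35 and 9.94 in the Fbn1mgR/mgR arrays, against 9.10, 9.14, 9.12 and 9.01 in the wild-type arrays. The wild-type arrays lay within 0.2 of each other and every Fbn1mgR/mgR array was above them, with mgR614 the closest. The mean was 10.3 ± 0.247 in Fbn1mgR/mgR and 9.09 ± 0.0574 in wild-type (SD, n = 4 each), a difference of 1.20 (SE 0.143, limma adjusted p = 0.00603), or 2.30-fold with a 95% interval of 1.84 to 2.88. Macrophage markers separated the genotypes in the same direction, and their part in this difference was not tested. The Ntn4 difference was 1.13 to 1.36 and passed in all 21 alternative fits (limma adjusted p = 0.00406 to 0.0272). Of the 3 genes tested in its list of other laminin chains and netrins, no other passed. Before adjustment, limma p was under 0.05 for 1 higher, Ntn4, and 1 lower, the laminin chain gene Lamc3 (list median -0.165). Lama1 and Lamb3, named after their values had been seen, were too dim to be tested, at 3.48 to 3.68 in all arrays.

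Ctss, the macrophage-rich cysteine protease cathepsin S, rose 7.93-fold (limma adjusted p = 0.000791), the only one of 11 genes tested for cross-linking and processing of basement membrane proteins to pass (before adjustment, p was under 0.05 for 3 higher and 0 lower; list median 0.27).

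No other basement membrane component passed among 18 tested (before adjustment, p was under 0.05 for 4 higher and 2 lower; median -0.15). The smallest p-values belonged to the collagen IV chain genes Col4a2 and Col4a6. Col4a2, part of the ubiquitous collagen IV trimer, was 6.25 to 6.61 in Fbn1mgR/mgR and 5.69 to 6.19 in wild-type arrays, a difference of 0.57 (limma adjusted p = 0.103). Col4a6, a chain of a smooth muscle and epithelial trimer, was 4.84 to 4.89 in Fbn1mgR/mgR and 5.05 to 5.28 in wild-type arrays, a difference of -0.30 (limma adjusted p = 0.131). In both the genotypes did not overlap, as in 8.92% of all rows tested (5.26% higher and 3.65% lower).

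Receptors of laminin and their partner proteins had 0 of 16 past the limma threshold (before adjustment, p was under 0.05 for 0 higher and 3 lower; median -0.05). The sarcoglycan genes Sgce and Sgcd, whose proteins belong to the dystrophin complex that dystroglycan anchors to laminin α2 and perlecan, had the smallest p. Sgce was 8.37 to 8.94 in Fbn1mgR/mgR and 9.0 to 9.45 in wild-type arrays (difference -0.47, limma adjusted p = 0.258), and Sgcd was 8.03 to 8.22 in Fbn1mgR/mgR and 8.17 to 8.97 in wild-type arrays (difference -0.45, limma adjusted p = 0.288).

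Genes that build or trim heparan sulfate, the sugar chain of perlecan, had 0 of 11 past the limma threshold (before adjustment, p was under 0.05 for 1 higher and 1 lower; median -0.05). Hpse, the heparanase that cuts these chains, was 5.48 to 5.90 in Fbn1mgR/mgR and 4.83 to 5.39 in wild-type arrays, a difference of 0.51 (limma adjusted p = 0.133). Sulf2, a sulfatase that edits them at the cell surface, was 10.4 to 11.7 in Fbn1mgR/mgR and 11.9 to 12.2 in wild-type arrays, a difference of -0.75 (limma adjusted p = 0.239). Both pairs of ranges were separate, as in 5.26% (higher) and 3.65% (lower) of all rows tested; these genes were named for having the smallest p of their list.

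**Figure D5:**
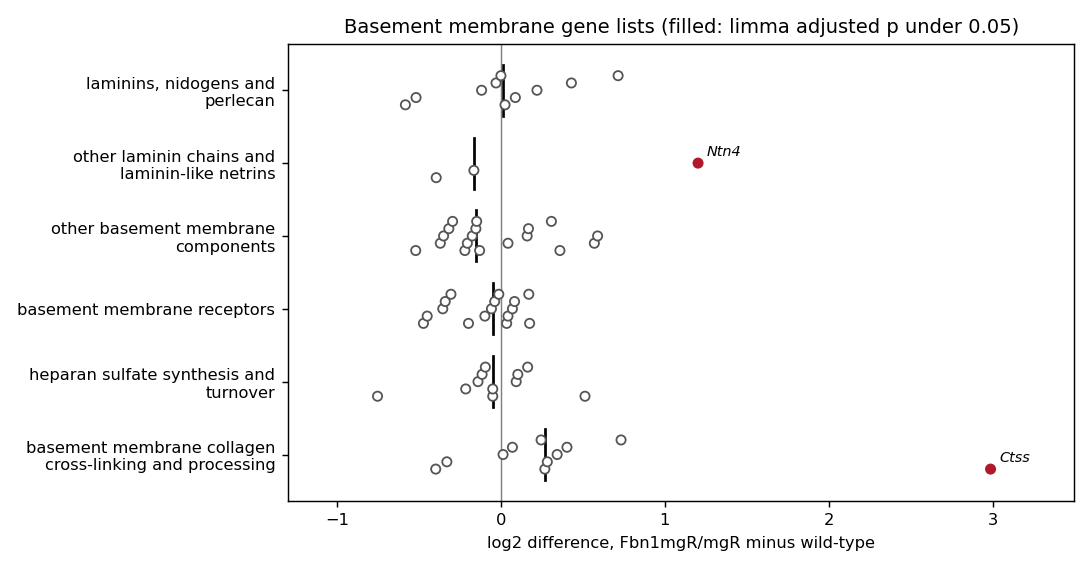
Log2 difference, Fbn1mgR/mgR minus wild-type (horizontal axis), of each tested gene in 6 groups of basement membrane genes (rows); vertical bars are group medians and filled points passed the limma threshold. Ntn4 at 1.20 and Ctss at 2.99 are the 2 filled points, and all 10 laminin, nidogen and perlecan genes lie between -0.58 and 0.71.

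The genes most like Lama4, Lama2 and Nid1 across arrays were sought after the mean of each genotype was subtracted, so that the genotype difference played no part. Over 8 arrays and 12139 genes, the highest Pearson correlations with Nid1 were those of Tnxb (0.991), Tnxa (0.988) and Rbbp6 (0.988). Tnxb encodes tenascin-X, a fibroblast matrix protein that binds collagen, and Tnxa is its partial copy, so their probes may share signal. Tnxb was 8.61, 10.32, 9.69 and 8.46 in the Fbn1mgR/mgR arrays, against 8.88, 8.97, 8.74 and 9.45 in the wild-type arrays, high in mgR612 and mgR613 and, among wild-type arrays, in WT744, as Nid1 was. Its own genotype difference was 0.26 (limma adjusted p = 0.850).

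The genes closest to Lama4 were the lysosomal transporter gene Slc15a4 (0.982), the ubiquitin-conjugating enzyme gene Ube2r2 (0.969) and Bmp3 (0.965), a secreted protein of the bone morphogenetic family. Bmp3 was 5.22, 6.08, 5.71 and 4.88 in the Fbn1mgR/mgR arrays, against 6.19, 6.22, 6.99 and 7.10 in the wild-type arrays, a difference of -1.15 (limma adjusted p = 0.122). The genes closest to Lama2 were Slc46a3 (0.970), Gvin1 (0.969) and Lrrcc1 (0.968). These correlations are the highest of many over few arrays and describe these arrays alone.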

How the data were processed

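Aortic RNA was measured on 8 arrays, 4 for each genotype, with groups and array numbers taken from the titles. The authors deposited log2 signals per transcript cluster, already normalized; per the submitters' processing notes they used the Transcriptome Analysis Console, with its version, normalization and probe summary not given in the sources used here. Of the 65956 rows, 30604 carried 1 platform gene symbol, 2146 several and 33206 none, and no gene was named from a row with several; gene IDs of 22818 rows matched the RefSeq gene table of GRCm38.p6, which updated 827 symbols. The brightest row stood for a gene with several.

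Rows with a mean above 4.01 (32957) were fitted with limma 3.58.1 in R 4.3.3 (lmFit, eBayes with an intensity trend, Benjamini-Hochberg over all rows tested). The fit was tested on simulated data. It recovered 61.3% of the rows given a log2 change of 1 and 81.5% of those given a change of 2, and 3.9% of its calls were false. Smaller changes, such as the differences of the 10 genes, were not simulated. Pairs of genes were compared by exact permutation of arrays. Python 3.11.15, pandas 2.3.3 and matplotlib 3.10.9 made the tables and figures. The genes, the 14 gene lists and the pairs were chosen with earlier results of these data known. Named genes were the 10 genes, list genes past the threshold or otherwise the 2 with the smallest p, and the 3 tested genes that correlated best with each of the 3 genes of smallest p; Lama1, Lamb3 and the genes of the closing observations were chosen after their values were seen, and marker lists are given as means with up to 3 of their brightest genes.

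Alternatives were other eBayes settings, array weights, other filters, quantile normalization, median centring, marker means as covariates and each array left out. A fibroblast covariate, a fit that left out mgR614 and WT676, which had the most brown fat signal, and a spread estimated on all rows before the filter were added after the values were seen. The genes' probe positions were not used here, and the Fbn1 transcript was not analysed here, so the labels were not checked against it.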

Additional observations from a re-analysis of the deposited data

Results flagged for a closer look

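Among 58 groups of 4 arrays examined (genes, list means and pairs by genotype), 3 held an array far from the others by Dixon's test, which by chance flags about 1 group in 20. The mean of brown fat markers in mgR614 was 9.86, against 6.92 to 7.03 in the other Fbn1mgR/mgR arrays. The difference Lama4 minus Lama5 in mgR611 was 0.85, against 1.66 to 1.79 in the other Fbn1mgR/mgR arrays. Lamc1 in WT744 was 8.05, against 7.90 to 7.92 in the other wild-type arrays.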

How the results depend on the processing

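None of the 10 genes passed the threshold in any of up to 21 alternative fits (0 higher and 0 lower in each), and 2 list genes passed as higher in each of those run for the lists. Lama2, Lama4, Lamc1, Nid1 and Nid2 kept their direction in all 21. Lama3 turned to 0.015 with array weights, 0.15 with the endothelial covariate and 0.057 without both arrays highest in brown fat, and was -0.13 to 0.038 with 1 array left out. Hspg2 turned to -0.011 with quantile normalization and -0.048 with the fibroblast covariate, and was -0.10 to 0.25 with 1 array left out. With the contractile covariate Lamb1 turned to -0.10 and Lamb2 to 0.13, and Hspg2 was 0.42 and Lama5 0.25. The cause of these turns was not tested. With 1 array left out, Lama4 ranged from -0.68 to -0.49, Lama2 from -0.65 to -0.41, Nid1 from 0.47 to 0.93, Nid2 from 0.04 to 0.70, Lamb1 from 0.08 to 0.44, Lama5 from -0.14 to 0.15 and Lama4 minus Lama5 from -0.68 to -0.36. Over all rows, 460 were higher and 153 lower; the counts were 161 and 35 with the contractile covariate, 275 and 62 with the endothelial covariate, 115 and 53 without both brown fat arrays, and 209 to 441 and 56 to 121 with 1 array left out. Without a filter 99 were lower, with more rows tested. The mean over several rows of a gene was not run, since each gene had 1 row. No paired analysis was possible because the genotypes share 0 replicate numbers.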

Other observations

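The collagen IV genes, which lie in head-to-head pairs and encode the network that nidogen joins to laminin, were examined together after their values had been seen. The pair Col4a1 and Col4a2 had differences of 0.36 and 0.57 (Fbn1mgR/mgR minus wild-type, limma adjusted p = 0.349 and 0.103). The other chains lay on the opposite side, Col4a3 at -0.18, Col4a4 at -0.13, Col4a5 at -0.20 and Col4a6 at -0.30, with adjusted p from 0.131 to 0.588. Col4a3 was 4.93 to 5.03 in Fbn1mgR/mgR and 5.04 to 5.20 in wild-type arrays, so its groups were separate by 0.01. None of the 6 passed the threshold, and the 4 chains Col4a3 to Col4a6 had signals of 4.77 to 5.86. Lamc3 and Mmp14 were also named after their values had been seen. The γ3 laminin chain gene Lamc3 was 5.79 to 6.31 in Fbn1mgR/mgR and 6.27 to 6.56 in wild-type arrays (difference -0.40, adjusted p = 0.222). Mmp14, the membrane-anchored metalloproteinase, was 8.87 to 9.84 in Fbn1mgR/mgR and 8.38 to 8.54 in wild-type arrays (difference 0.73, adjusted p = 0.152), again highest in mgR612.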
